A study of Mus musculus with 9 samples.

Results

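The genes described here are 10 members of the NF-kB inflammatory response, Lcn2, Il6, Nfkbia, Nfkbiz, Tnfaip3, Ccl2, Cxcl1, Icam1, C3 and Relb, out of 24318 genes measured. They were chosen by name with the values of the DDX1 knockdown already known, where Lcn2 and Il6 had the largest increases among them. The levels in that knockdown are therefore given as a description with no test, and the members were tested only in the EXOSC3 knockdown. RNA came from N2A cells, a mouse neuroblastoma line, transfected with siRNA by lipofection. The control group received a scramble siRNA and carries the genotype label WT. The siDDX1 group is labelled DDX1 knockdown and the siEXOSC3 group EXOSC3 knockdown. All groups carry the treatment label Untreated. Each group had 3 libraries from separately seeded plates, 9 in all, made from rRNA-depleted total RNA. The scramble libraries served both knockdowns. The study's methods name 2 EXOSC3 siRNAs without saying which was used for these libraries, and the DDX1 siRNA is not given in the sources used here. DDX1 is a putative RNA helicase of the DEAD-box family. EXOSC3 is a structural subunit of the RNA exosome, the complex that degrades and trims RNA from its 3′ end.

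The NF-kB transcription factors are dimers of proteins such as RelA, RelB and the p50 product of Nfkb1. In resting cells inhibitory IkB proteins hold the dimers in the cytoplasm, and signals from tumor necrosis factor, interleukin-1 or microbial products free them through the IkB kinases. The freed dimers induce chemokines, cytokines, adhesion molecules and acute phase proteins together with their own inhibitors, so that the response limits itself. Lcn2 encodes lipocalin 2, a secreted protein that binds bacterial siderophores, and Il6 encodes the cytokine interleukin-6. Both are induced in many cell types during inflammation, and their transcription also uses C/EBP factors.

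Promoter sequences of 4 members are shown. Lcn2 and Il6 stood apart from the other members in the RNA measurements, whereas Nfkbia and Cxcl1 are classical NF-kB targets whose knockdown values overlapped scramble. The 4 were chosen with these measurements known, and no relation of motifs to RNA levels was tested. Each line gives the 250 bases before the annotated RefSeq start, 5′ to 3′ on the strand of the gene, on build GRCm38.p6. Capitals mark a match to the kB consensus motif or to the C/EBP motif TTGCNNAA on either strand. The stretches are chr2:32387740-32387989 on the minus strand for Lcn2, chr5:30012864-30013113 on the plus strand for Il6, chr12:55492648-55492897 on the minus strand for Nfkbia and chr5:90890995-90891244 on the plus strand for Cxcl1.
Lcn2: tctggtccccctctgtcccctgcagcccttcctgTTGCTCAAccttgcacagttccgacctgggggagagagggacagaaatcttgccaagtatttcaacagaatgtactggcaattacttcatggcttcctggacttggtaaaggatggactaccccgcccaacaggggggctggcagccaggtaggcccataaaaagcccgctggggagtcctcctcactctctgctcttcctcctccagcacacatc
Il6: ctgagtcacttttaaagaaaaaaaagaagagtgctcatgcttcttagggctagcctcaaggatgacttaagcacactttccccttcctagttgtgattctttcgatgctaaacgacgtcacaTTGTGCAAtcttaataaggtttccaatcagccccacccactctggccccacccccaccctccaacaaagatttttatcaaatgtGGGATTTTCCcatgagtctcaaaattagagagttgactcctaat
Nfkbia: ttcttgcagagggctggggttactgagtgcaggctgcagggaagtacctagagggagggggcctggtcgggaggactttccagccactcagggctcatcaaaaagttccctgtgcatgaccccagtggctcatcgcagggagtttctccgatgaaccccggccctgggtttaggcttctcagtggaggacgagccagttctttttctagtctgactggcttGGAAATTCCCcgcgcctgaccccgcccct
Cxcl1: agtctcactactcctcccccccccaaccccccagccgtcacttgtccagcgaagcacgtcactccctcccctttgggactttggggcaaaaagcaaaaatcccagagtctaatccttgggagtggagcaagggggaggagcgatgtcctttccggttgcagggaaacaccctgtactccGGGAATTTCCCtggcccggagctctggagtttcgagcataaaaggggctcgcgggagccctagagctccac

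The Lcn2 stretch held no kB match and a C/EBP match that begins 216 bases before the start. The Il6 stretch held a kB match 44 bases before the start and a C/EBP match 128 bases before it, the latter on the opposite strand. Nfkbia held a kB match 29 bases before the start. The capitals of Cxcl1 are a pair of overlapping kB matches, on opposite strands, that begin 71 and 70 bases before the start. RefSeq windows from 250 bases before to 50 bases after a start were given for 7 of the 10 members, 8 windows in all because Tnfaip3 has 2. In them, a kB match was present in 4 of 8 windows, those of Il6, Nfkbia and Cxcl1 and 1 window of Tnfaip3. The share was 8.46% of all 32851 windows of the table, 10.5% of the 10820 windows of genes tested in both knockdowns and 21.9% of the 146 windows of other pathway genes. A C/EBP match was present in 3 of 8 windows, those of Lcn2, Il6 and C3, against 10.8% of all windows. Icam1 had neither match in its window, which says only that these letters were not found there.

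**Figure D1:**
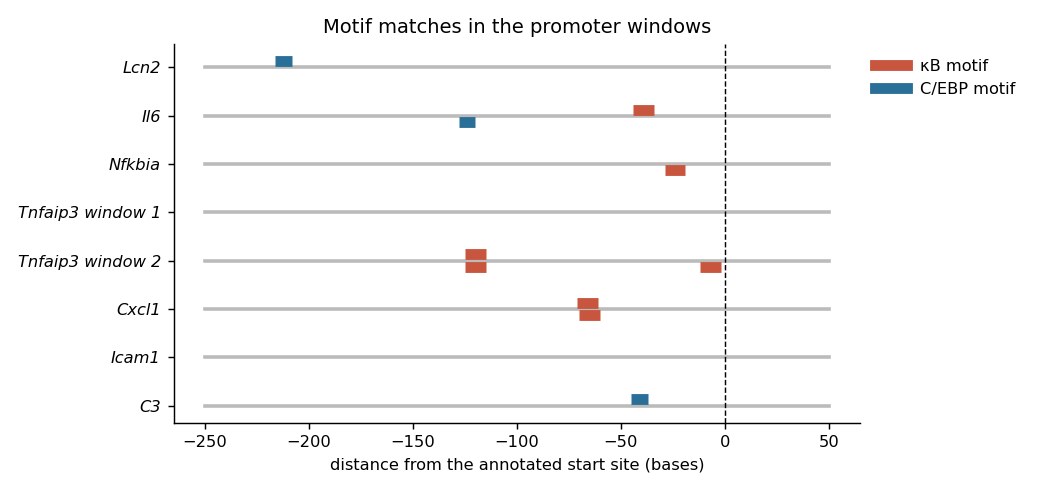
Positions of kB and C/EBP motif matches in the 8 RefSeq promoter windows of 7 members, plotted as the distance in bases from the annotated start site, with matches on the strand of the gene above the line and those on the opposite strand below it. Il6 carries both motifs, Lcn2 and C3 carry only a C/EBP match, and Icam1 and 1 window of Tnfaip3 carry neither.

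Expression was given as FPKM, a unit per transcript length and per mapped fragments whose library normalization is not given in the sources used here, in a table per knockdown with the scramble libraries scaled again in each. Fold changes below are differences of log2(FPKM + 1), which understates the change of low genes. A gene was tested where its mean FPKM over the 6 libraries of a table was at least 1, and called where the adjusted p-value of limma (Benjamini-Hochberg over all genes tested) was under 0.05. The depleted genes matched the labels. Ddx1 was 28.0, 28.7 and 34.8 FPKM in the 3 siDDX1 libraries against 119 to 130 in scramble, or 24.4% of scramble, and Exosc3 was 6.01 to 7.68 FPKM in siEXOSC3 against 42.7 to 45.8, or 15.5%. Replicates within a group correlated with r between 0.983 and 0.997 across genes. The third siDDX1 library stood somewhat apart: without it the number of genes called in siDDX1 went from 623 increased and 559 decreased to 1818 and 1706. Other libraries moved the counts the other way, to 100 and 58 without the first scramble library and 95 and 65 without the third.

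All 10 members are annotated as protein-coding, and their FPKM are per gene, not per exon or isoform. Lcn2 and Il6 were the 2 members whose level differed most between siDDX1 and scramble. Lcn2 (chromosome 2, 32240153 to 32243317, minus strand, build NCBIM37, the same as mm9) was 39.0, 34.7 and 21.7 FPKM in the siDDX1 libraries and 3.85, 3.46 and 3.54 in scramble. The lowest siDDX1 library was 5.62 times the highest scramble library, so the groups lay far apart. The mean was 31.8 ± 9.03 FPKM (SD, n = 3) against 3.62 ± 0.206, a ratio of 8.79, and the log2 fold change was 2.79 with a standard error of 0.187. Without the third siDDX1 library the log2 fold change was 3.03. In bulk RNA, more cells with a transcript and more of it per cell cannot be told apart. The genes within 5 kb of Lcn2, Ciz1 and 1110008P14Rik, were not called in siDDX1, with log2 fold changes of 0.23 (adjusted p = 0.0541) and 0.08 (adjusted p = 0.567).

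Il6 (chromosome 5, 30339701 to 30346508, plus strand) was 49.9, 52.9 and 85.5 FPKM in siDDX1 and 19.7, 16.4 and 17.6 in scramble. All siDDX1 libraries were above all scramble libraries, the closest pair by 2.54 times. The mean was 62.8 ± 19.7 FPKM (SD, n = 3) against 17.9 ± 1.67, a ratio of 3.51, with a log2 fold change of 1.72 and a standard error of 0.183. It was 1.48 without the third siDDX1 library. Among the members, Il6 had the highest mean FPKM in siDDX1, where Nfkbia had it in scramble. The next mean in siDDX1 was that of Lcn2, whose libraries overlapped those of Nfkbia.

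**Figure D2:**
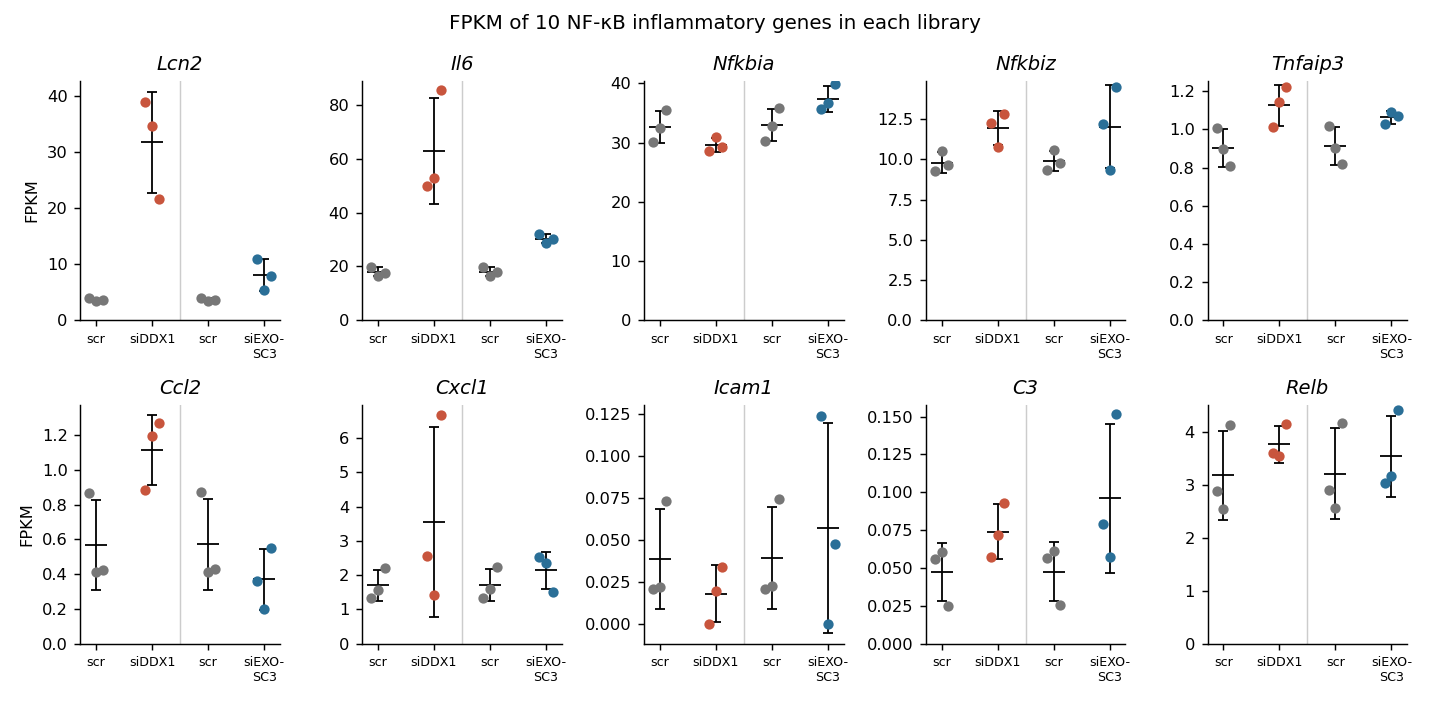
FPKM of the 10 members in each library (points), with the mean (dash) and SD (bars) of 3 libraries per group. Each panel has scramble (scr) and siDDX1 of their shared table on the left and scramble and siEXOSC3 of theirs on the right. In the Lcn2, Il6 and Tnfaip3 panels all values of both knockdowns are above scramble, narrowly for Tnfaip3, while the Nfkbia, Cxcl1 and Relb groups overlap.

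The siDDX1 libraries did not rank the members alike. The third library had the lowest Lcn2 of the 3, at 599% of the scramble mean against 1078% and 960%, and the highest Il6, at 478% against 279% and 296%. Cxcl1 was also highest there, at 391% against 150% and 82.5%. This library kept the most Ddx1 RNA, 27.8% of scramble against 22.4% and 22.9%. With 3 libraries no relation among these values was tested.

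**Figure D3:**
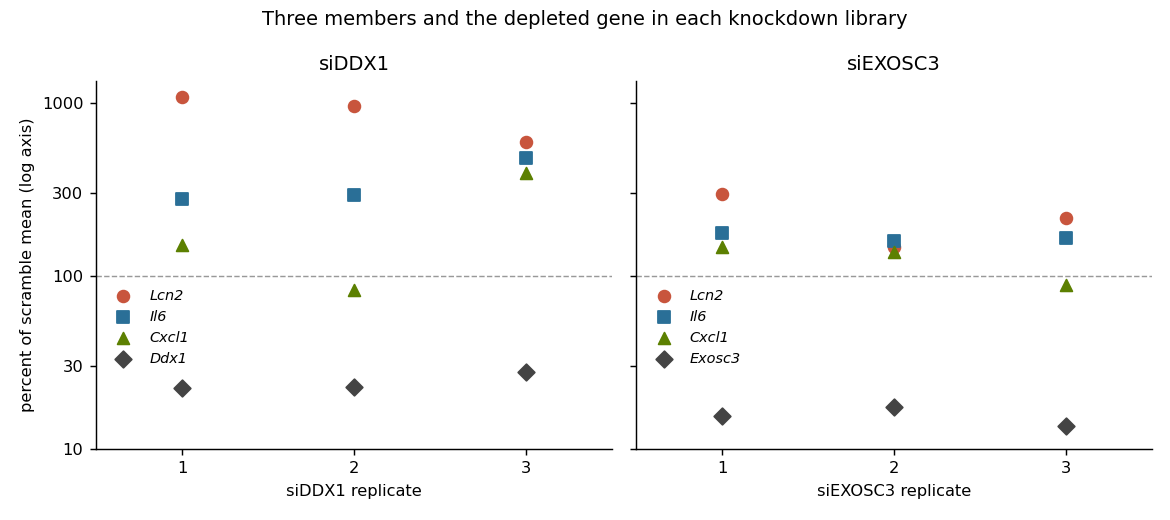
Levels of Lcn2, Il6 and Cxcl1 and of the depleted gene in each knockdown library, as percent of the scramble mean of the same table on a log axis, with the dashed line at 100%. The third siDDX1 library has the lowest Lcn2 (599%) with the highest Il6 (478%) and Cxcl1 (391%), while Il6 lies within 159% to 177% in all siEXOSC3 libraries.

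After EXOSC3 depletion, Lcn2 and Il6 were again higher, here with a test. These comparisons share the scramble libraries with the siDDX1 comparison and are not independent of it. Lcn2 was 10.9, 5.35 and 7.90 FPKM in siEXOSC3 against 3.88, 3.49 and 3.59 in scramble, and no values overlapped. The mean was 8.06 ± 2.80 (SD, n = 3) against 3.65 ± 0.206, a ratio of 2.21, with a log2 fold change of 0.92, a standard error of 0.197 and a limma adjusted p of 0.0108. Il6 was 32.0, 28.7 and 30.1 FPKM against 19.8, 16.5 and 17.8, again with no overlap. Its mean was 30.3 ± 1.67 against 18.1 ± 1.68, a ratio of 1.68, with a log2 fold change of 0.72, a standard error of 0.0828 and an adjusted p of 0.00127. Lcn2 stayed called without any single library (adjusted p from 0.000528 to 0.0454), and so did Il6 (0.000621 to 0.0115). An exact two-sided permutation test on 3 against 3 libraries cannot go below 0.1, which is the value both genes had. Whether the increases differed between the knockdowns was not tested.

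**Figure D4:**
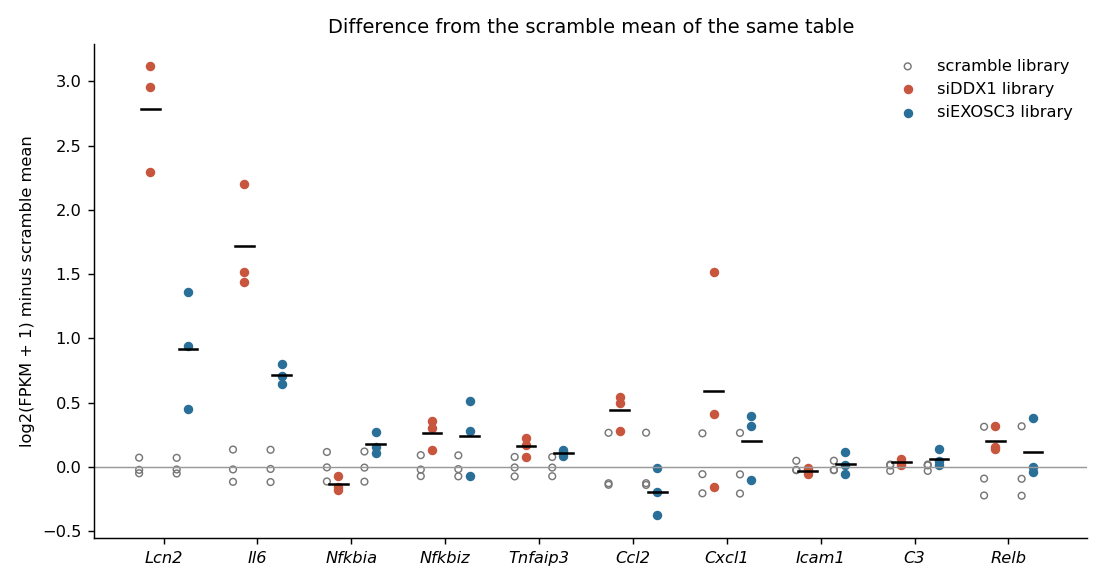
Difference of log2(FPKM + 1) from the scramble mean of the same table for each member, with siDDX1 libraries in red, siEXOSC3 libraries in blue, their means as dashes and scramble libraries as open circles. Lcn2 and Il6 have mean differences of 2.79 and 1.72 in siDDX1 and 0.92 and 0.72 in siEXOSC3, and among the other members the point farthest from scramble is Cxcl1 in the third siDDX1 library (6.68 FPKM against 1.33 to 2.21).

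The IkB family members Nfkbia and Nfkbiz and the inhibitor gene Tnfaip3 had smaller differences than Lcn2 and Il6. Nfkbia (chromosome 12, 56590398 to 56593634, minus strand) encodes IkB alpha, the inhibitor that is degraded on activation and resynthesized by NF-kB. It was 28.6, 31.0 and 29.2 FPKM in siDDX1 against 30.1, 32.5 and 35.4 in scramble, with overlapping groups and a log2 fold change of −0.13. In siEXOSC3 it was 35.6, 36.7 and 39.8 FPKM against 30.3, 32.8 and 35.8, also overlapping, with a log2 fold change of 0.18 and an adjusted p of 0.121. Nfkbiz (chromosome 16, 55811488 to 55839012, minus strand) encodes IkB zeta, a nuclear cofactor needed for induction of Lcn2 and Il6 in several cell types. It was 12.3, 10.8 and 12.8 FPKM in siDDX1 against 9.27, 10.5 and 9.64, so all siDDX1 values were above scramble, the closest by 1.03 times. In siEXOSC3 it was 12.2, 9.37 and 14.5 FPKM against 9.35, 10.6 and 9.76, with overlap, a log2 fold change of 0.24 and an adjusted p of 0.204. Without the second siEXOSC3 library the log2 fold change of Nfkbiz was 0.40 and its adjusted p 0.0107, and without the third they were 0.10 and 0.506. Tnfaip3 (chromosome 10, 18720716 to 18735463, minus strand) encodes A20, a ubiquitin-editing enzyme that ends signaling from the receptors. It was 1.01, 1.15 and 1.22 FPKM in siDDX1 against 1.01, 0.897 and 0.808, and 1.03, 1.09 and 1.07 in siEXOSC3 against 1.02, 0.904 and 0.817. The knockdown values were above scramble in both tables, the closest pair differing by 1.00 and 1.01 times, and it reached the level filter in siDDX1 only through the siDDX1 libraries. In siEXOSC3 the gene was under the test's level filter (exact permutation p = 0.1).

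The chemokines were low. Ccl2 (chromosome 11, 81849073 to 81850955, plus strand), which attracts monocytes, was 0.886, 1.19 and 1.27 FPKM in siDDX1 against 0.868, 0.411 and 0.423 in scramble. All siDDX1 values were above scramble, the first scramble library only just below them. In siEXOSC3 Ccl2 was 0.358, 0.200 and 0.550 FPKM against 0.875, 0.414 and 0.428, with overlap and an exact permutation p of 0.4. Ccl2 overlaps Gm17268 on the opposite strand, and these nondirectional libraries cannot separate their transcripts. Cxcl1 (chromosome 5, 91320267 to 91322141, plus strand), which attracts neutrophils, was 2.56, 1.41 and 6.68 FPKM in siDDX1 against 1.33, 1.58 and 2.21. Its mean of 3.55 ± 2.77 (SD, n = 3) rested on the third library, and the log2 fold change went from 0.59 to 0.13 without it. In siEXOSC3 Cxcl1 was 2.54, 2.36 and 1.52 FPKM against 1.34, 1.59 and 2.24, with overlap and an adjusted p of 0.376.

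Of the other members, Relb (chromosome 7, 20191566 to 20214787, minus strand), the subunit of the noncanonical pathway that is itself an NF-kB target, was 3.59, 3.53 and 4.15 FPKM in siDDX1 against 2.87, 2.54 and 4.12. It was 3.03, 3.16 and 4.40 in siEXOSC3 against 2.89, 2.55 and 4.17, with overlap in both tables and an adjusted p of 0.622 in the latter. Icam1 (chromosome 9, 20820404 to 20833241, plus strand), an adhesion molecule for leukocytes, was 0.124 FPKM or lower in every library and listed at 0 in 1 library of each knockdown. After correction for relative depth, its values were whole multiples, from 0 to 5, of its smallest value above 0 to within 0.00309, so they rest on very few fragments. C3 (chromosome 17, 57343397 to 57367559, minus strand), the central complement component, was 0.0574, 0.0719 and 0.0930 FPKM in siDDX1 against 0.0559, 0.0607 and 0.0252, and 0.0575 to 0.152 in siEXOSC3 against 0.0255 to 0.0612. No difference in Icam1 or C3 could be read at this depth.

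In scramble cells the order of the levels per length was Nfkbia, Il6, Nfkbiz, Lcn2, Relb, Cxcl1, Tnfaip3, Ccl2, C3 and Icam1. The neighbors Lcn2 and Relb, Tnfaip3 and Ccl2, and C3 and Icam1 overlapped between libraries. In siDDX1 it was Il6, Lcn2, Nfkbia and Nfkbiz, with Lcn2 overlapping Nfkbia. In siEXOSC3 the first 4 places were as in scramble, and Lcn2 then overlapped Nfkbiz.

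Over all genes, 5.61% of the 11104 tested in siDDX1 were called increased and 5.03% decreased, and no call is given for the members there because that contrast chose them. With FPKM rescaled to the same total in every library, Rmrp left out of the total, which shifts the median of all genes by −0.15 on the log2 scale, the calls in siDDX1 were 255 increased and 1605 decreased in place of 623 and 559. All siDDX1 values were above all scramble values for 5 members, Lcn2, Il6, Nfkbiz, Tnfaip3 and Ccl2, and below for 0, where 13.6% and 13.8% of 16981 genes above 0 did so, and nothing is read from this count either. At these equal totals Nfkbiz, Tnfaip3 and Ccl2 overlapped scramble and all Nfkbia values lay below it, while Lcn2 and Il6 were 7.75 and 3.18 times scramble. In siEXOSC3, 6 members were tested and Lcn2 and Il6 were called increased, against a background of 16.7% of 11242 genes. By limma 0 members were called decreased, where 15.7% of genes were, and 0 had a lower level at an unadjusted p under 0.05. Lcn2, Il6 and Tnfaip3 had all values above scramble and 0 members had all values below, against 20.5% and 18.8% of 17015 genes. At equal totals Tnfaip3 overlapped scramble there too, which left Lcn2 and Il6. The median log2 fold change of all 10 members, the 4 untested ones included, was 0.14, and that of all genes tested was −0.01. These are counts on 6 to 10 genes.

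Of 155 other genes in 8 lists, 86 were tested in each table. In siDDX1 3 increased and 7 decreased (3.49% and 8.14%, against 5.61% and 5.03% of all genes), with a median log2 fold change of −0.05. At equal totals without Rmrp the counts were 2 and 17, where those of all genes were 255 and 1605. In siEXOSC3 7 increased and 20 decreased (8.14% and 23.3%, against 16.7% and 15.7% of all genes), with a median of −0.07. With any 1 library left out, the siDDX1 counts ran from 0 to 11 increased and from 1 to 22 decreased. Those of siEXOSC3 ran from 3 to 10 and from 7 to 23, where all genes ran from 1027 to 2379 and from 583 to 2508. The counts of single lists below are to be read against the same shares. The genes named next are those with the largest called changes of each list, and for each of them all 3 knockdown values lay on the same side of all 3 scramble values.

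Of 9 subunits and IkB kinases tested, 1 decreased in siDDX1 and 4 in siEXOSC3, and 0 increased in either (also 0 at an unadjusted p under 0.05). Nfkb1, the precursor of p50, was 5.73, 5.76 and 7.51 FPKM in siDDX1 against 9.83, 8.47 and 9.97 (log2 fold change −0.51, adjusted p = 0.0280). In siEXOSC3 Nfkb1 was 5.73, 6.89 and 4.42 FPKM against 9.91, 8.53 and 10.1 (−0.67, adjusted p = 0.00915). Rela, the main activating subunit, decreased in siEXOSC3 to 8.14 ± 1.20 FPKM from 11.3 ± 0.944 (SD, n = 3; −0.43, adjusted p = 0.0186), and in siDDX1 it was 8.88 ± 0.798 against 11.2 ± 0.909 (adjusted p = 0.0674).

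Of 20 receptors and adaptors upstream of NF-kB, 1 increased and 1 decreased in siDDX1, and 3 increased and 7 decreased in siEXOSC3. Ticam1, the TRIF adaptor of Toll-like receptor signaling, increased in both, by 0.59 (adjusted p = 0.0281) and 0.74 (adjusted p = 0.0214) on the log2 scale. Tab2, a partner of the TAK1 kinase, decreased in siDDX1 (−0.37, adjusted p = 0.0237). In siEXOSC3 Traf5, an adaptor of tumor necrosis factor family receptors, increased (0.59, adjusted p = 0.0319), and Irak2 and Myd88, which carry interleukin-1 and Toll-like receptor signals, decreased (−0.77, adjusted p = 0.00834, and −0.54, adjusted p = 0.0152). Of 14 other feedback inhibitors, limma called 0 in siDDX1 (2 lower at an unadjusted p under 0.05). In siEXOSC3 it called 2, Itch, a ubiquitin ligase (−0.36, adjusted p = 0.00969), and Nfkbid, a nuclear IkB protein (−0.35, adjusted p = 0.0364), both decreased.

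Of the other cytokines, 3 of 20 listed cytokines and chemokines reached the level for a test, and Tnf and Il1b, the classical inducers of the response, were listed at 0 in every library. Cxcl10, an interferon-responsive chemokine, decreased in siDDX1 to 0.604, 0.904 and 1.75 FPKM from 3.07, 2.85 and 3.09 (−0.98, adjusted p = 0.0174). Il23a, a subunit of interleukin-23 and the most abundant gene of the list, was 78.9, 81.6 and 134 FPKM in siDDX1 against 66.7, 52.8 and 65.9 (0.62, adjusted p = 0.0735). In siEXOSC3 it was 71.2, 89.4 and 72.5 FPKM against 67.3, 53.2 and 66.7 (0.31, adjusted p = 0.0716), so all knockdown values were above scramble in both tables without passing the test. Il23a was named after its values were seen. Csf1, the macrophage growth factor, decreased in siDDX1 (−0.79, adjusted p = 0.0338) and in siEXOSC3 (−1.06, adjusted p = 0.00327). Of 12 other response genes tested, 1 increased and 2 decreased in siDDX1 and 1 increased and 1 decreased in siEXOSC3. Ier3, an early response gene tied to cell survival, was the gene that increased in both. It was 58.5, 57.4 and 48.1 FPKM in siDDX1 against 35.7, 39.5 and 36.9 (0.53, adjusted p = 0.0107), and 77.1, 52.6 and 90.5 in siEXOSC3 against 36.0, 39.8 and 37.4 (0.91, adjusted p = 0.00673). Gadd45b, a stress response gene, and Tapbp, which loads peptides on MHC class I, decreased in siDDX1 (−0.56, adjusted p = 0.0170, and −0.41, adjusted p = 0.0109). Saa3, an acute phase protein, decreased in siEXOSC3 (−0.55, adjusted p = 0.0136), having reached the level filter only through the scramble libraries.

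Genes that receive the signals of interleukin-6 and lipocalin 2 were tested in 11 of 17 cases. In siDDX1 limma called 0 of them (2 higher and 4 lower at an unadjusted p under 0.05). In siEXOSC3 Il6st, the gp130 signaling receptor, decreased to 13.6 ± 0.976 FPKM from 21.9 ± 0.261 (SD, n = 3; −0.65, adjusted p = 0.00106), and Il11ra1, the interleukin-11 receptor, increased (0.63, adjusted p = 0.00682). Il6ra, the binding receptor for interleukin-6, averaged 0.256 FPKM in scramble, and the lipocalin 2 receptor genes Slc22a17 and Lrp2 stayed at or near 0. Of 4 complement genes tested in siDDX1, C1ra, a protease of the first complement component, increased (0.39, adjusted p = 0.0480), having reached the level filter only through the siDDX1 libraries, and Clu, the chaperone clusterin, decreased (−0.76, adjusted p = 0.00693). Of 3 tested in siEXOSC3, Cd59a, which blocks the membrane attack complex, increased (0.87, adjusted p = 0.00295). Regulators of inflammatory mRNA stability were called in 0 of 13 cases in siDDX1 (2 higher and 1 lower at an unadjusted p under 0.05). In siEXOSC3, 1 of 14 increased and 4 decreased, with Elavl1, which binds AU-rich elements, at 0.23 (adjusted p = 0.0218), Zc3h12c, a relative of the endonuclease Regnase-1, at −0.51 (adjusted p = 0.0101) and Rc3h1, the Roquin-1 gene, at −0.30 (adjusted p = 0.0130).

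**Figure D5:**
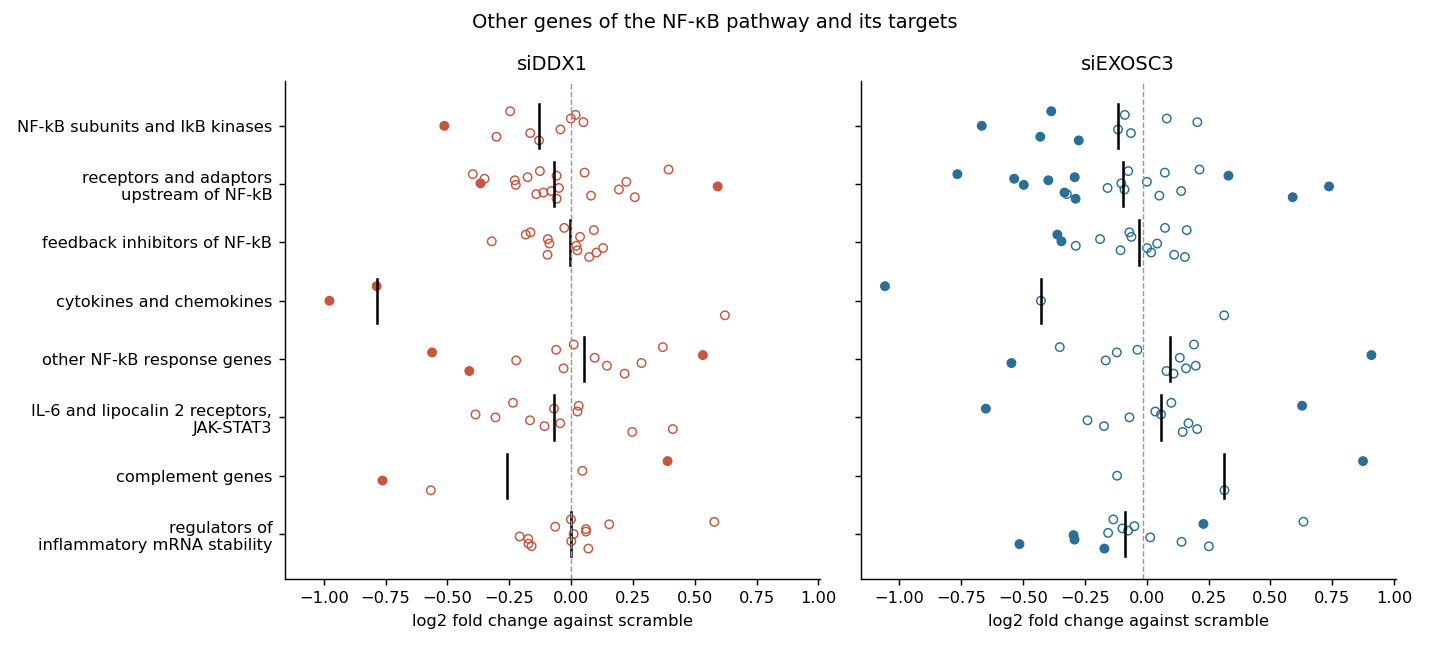
Log2 fold change of the tested genes of 8 pathway lists in siDDX1 (left, red) and siEXOSC3 (right, blue), with filled points called at an adjusted p under 0.05, black bars at list medians and the dashed line at the median of all genes tested. Left of 0 lie 7 of 10 filled points in siDDX1 and 20 of 27 in siEXOSC3, while over all genes 52.7% and 51.5% of the calls were increases. At equal totals without Rmrp 2 increased and 17 decreased in siDDX1, and 13.7% of the calls over all genes were increases.

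Of the 10 genes named there, Clu stayed called without any single library (highest adjusted p 0.0421). The other 9 lost the call without the first scramble library and without the third, and some without others, with highest adjusted p-values between 0.0652 and 0.149. Without the third siDDX1 library the called pathway genes numbered 11 increased and 22 decreased. In siEXOSC3, Nfkb1, Irak2, Csf1, Ier3, Il6st, Il11ra1, Cd59a and Zc3h12c stayed called without any single library. Itch, Myd88, Saa3, Rc3h1, Rela, Ticam1, Traf5, Elavl1 and Nfkbid did not, with highest adjusted p-values between 0.0516 and 0.117. Of these, Saa3 lost the call without the third scramble or the first siEXOSC3 library, and the others lost it without the first scramble library, some without further ones. Among the alternatives that keep all libraries, C1ra lost its call in siDDX1 under quantile normalization and at equal totals, and Csf1, Nfkb1, Tab2 and Ticam1 lost theirs with no level filter (adjusted p up to 0.0918). In siEXOSC3 Ticam1 and Traf5 lost theirs with no level filter, Traf5 also under quantile normalization and Nfkbid under median centring (adjusted p up to 0.0799). With the replicate number as a block, C1ra lost its call in siDDX1, and Rela, Ticam1, Elavl1 and Nfkbid lost theirs in siEXOSC3.

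The summed FPKM of 8 neuronal genes was 307 to 327 in siDDX1 against 260 to 277 in scramble, and 496 to 502 in siEXOSC3 against 262 to 280. Gap43 led this, at 115 FPKM in siDDX1 against 80.8 (adjusted p = 0.00693) and 233 in siEXOSC3 against 81.5 (adjusted p = 6.71e-05), and Nefl and Dcx were near 0 in all groups. Of 8 macrophage and microglia genes, 7 were in the table, with sums of 2.17 to 4.17 FPKM in siDDX1 against 1.61 to 2.64 and of 2.18 to 3.13 in siEXOSC3 against 1.62 to 2.66. Itgam was listed at 0 in every library, and 5 of the 7 averaged under 0.1 FPKM in siDDX1. Tyrobp, an adaptor of myeloid receptors, was higher in siDDX1 and in siEXOSC3, with log2 fold changes of 0.89 (adjusted p = 0.0126) and 0.63 (adjusted p = 0.00827). Tyrobp averaged 0.810 FPKM in scramble and reached the level filter only through the knockdown libraries. Cd68 had lower means, 0.669 FPKM in siDDX1 against 1.17 and 0.645 in siEXOSC3 against 1.18, and was under the level filter. Csf1r and Cd14, near 0 in all groups, also had lower means in both knockdowns, while Aif1 averaged 0 in scramble, 0.0534 in siDDX1 and 0.173 in siEXOSC3. Sums of 5 fibroblast genes (0.839 to 1.31 FPKM) and 4 astrocyte genes (0.178 to 0.569) were low in all groups. The sum of 4 endothelial genes was 5.04 to 5.77 in siDDX1 against 4.08 to 4.69 and 6.24 to 9.19 in siEXOSC3 against 4.11 to 4.75, nearly all of it Pecam1, with Kdr at 0. Pecam1, an adhesion molecule, was 5.25 FPKM in siDDX1 against 4.09 (adjusted p = 0.0687) and increased in siEXOSC3 to 7.28 from 4.13 (adjusted p = 0.00827). Tek, under the level filter, had lower means, 0.223 FPKM in siDDX1 against 0.240 and 0.0854 in siEXOSC3 against 0.242. Cdh5, near 0 in all groups, also had lower means in both knockdowns. The part of these genes in the Lcn2 and Il6 results was not tested.

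The genes whose profile over the 9 libraries was most like that of Lcn2 were Tenm2 (Pearson r = 0.995), Prmt7 (0.994), Acox2 (0.986), Fth1 (0.980) and Pih1d1 (0.978), out of 11054 genes tested in both tables. Tenm2 averaged 0.927 FPKM in scramble and reached the level filter only through the knockdown libraries. Acox2, a peroxisomal oxidase, differed by 2.07 on the log2 scale in siDDX1 and by 0.54 in siEXOSC3. Fth1, the ferritin heavy chain, differed by 0.32 and 0.13. For Il6 they were Pknox1 (0.982), Tfcp2l1 (0.965), Arhgef2 (0.959), Xbp1 (0.959) and Vars (0.949). Xbp1, a transcription factor of the unfolded protein response, differed by 0.37 and 0.23. Lcn2 and Il6 correlated with each other at r = 0.888, which put Lcn2 at rank 56 for likeness to Il6 and Il6 at rank 112 for likeness to Lcn2. These correlations follow the groups and use the same scramble libraries, so they describe the profiles only.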

How the data were processed

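RNA from 9 N2A cultures was sequenced as nondirectional rRNA-depleted libraries, 3 each for scramble, siDDX1 and siEXOSC3. The authors aligned reads to mm9 with TopHat2 2.1.0, sorted them with SAMtools and ran Cuffdiff 2.2.1, and deposited FPKM values per gene in 2 tables, each holding a knockdown and the scramble group. The annotation they used and the Cuffdiff normalization are not given in the sources used here. The scramble values differ between tables by a near constant factor, 1.008 to 1.012, so tests stayed within a table. Rmrp took 10.1 to 17.3% of the FPKM in a library, and totals ran from 692933 to 893687. Total fragment counts are unknown from FPKM; steps between low values put relative depth at 0.827 to 1.20 of the first scramble library, so no counting interval is given.

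Genes averaging an FPKM of 1 or more were tested in limma 3.58.1 (R 4.3.3) on log2(FPKM + 1) with an intensity trend, two-sided, with Benjamini-Hochberg adjustment over all genes of a table at 0.05. Members under the filter got an exact permutation test in siEXOSC3. On simulated data with 200 genes changed by 1 on the log2 scale, 90% of them were recovered in the siDDX1 comparison (11103 genes) and 96% in the siEXOSC3 comparison (11242 genes), with 0 of the wrong sign and with 8 and 9 false calls. The simulation raised low genes to a floor and drew independent errors, so it does not cover genes near the level filter or shifts of whole libraries. Most called changes named above were smaller than the simulated ones. Members and lists were chosen with earlier results of these data known. Named genes were the 10 members, Ddx1 and Exosc3, from each list, knockdown and direction the 2 called genes with the largest change whose groups do not overlap, and the 5 genes most like Lcn2 or Il6 by Pearson r. Positions are from GENCODE vM1 on NCBIM37 and promoters from RefSeq on GRCm38.p6. Alternatives were the pseudocount, the level filter, 3 other scalings, the variance model, a replicate block, a threshold of 0.01 and leaving out each library. Motifs and figures were computed in Python 3.11.15. Replicate p-values measure the spread between plates of the same line.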

Additional observations from a re-analysis of the deposited data

Results flagged for a closer look

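Saa3, an acute phase gene among the other NF-kB response genes, lay on opposite sides of scramble in the knockdowns. It was 2.29, 2.54 and 2.38 FPKM in siDDX1 against 1.58, 1.89 and 1.92 in scramble, a log2 fold change of 0.28 that did not pass (limma adjusted p = 0.0946). In siEXOSC3 it was 0.854, 1.18 and 0.760 FPKM against 1.59, 1.90 and 1.95, a log2 fold change of −0.55 (adjusted p = 0.0136), having reached the level filter only through the scramble libraries. All 3 libraries of each knockdown lay on their side, both comparisons use the same scramble libraries, and the difference between the knockdowns was not tested. Saa3 lost its call in siEXOSC3 without the third scramble or the first siEXOSC3 library (highest adjusted p 0.0560).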

How the results depend on the processing

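Lcn2 and Il6 stayed called in siEXOSC3 in all fits at an adjusted p under 0.05, with adjusted p-values of 0.00875 to 0.0374 and 0.000865 to 0.00750 under the alternatives that keep all libraries. At a threshold of 0.01, 1 member stayed called in siEXOSC3. Nfkbiz passed there without the second siEXOSC3 library (0.40, adjusted p = 0.0107), and without the third it was at 0.10 (adjusted p = 0.506). No result changed direction among the calls. Genes called in siDDX1, increased and decreased, numbered 387 and 330 with no level filter, 255 and 1605 at equal totals without Rmrp and 100 and 83 at a threshold of 0.01, and at a threshold of 0.01 in siEXOSC3 869 and 480. Other pathway genes increased in siDDX1 numbered 1 at a mean FPKM of at least 5 and 0 at a threshold of 0.01, and those decreased 17 at equal totals and 1 at 0.01. In siEXOSC3 3 increased at a mean FPKM of at least 5, and 3 increased and 6 decreased at 0.01. Members with all siDDX1 values above scramble numbered 2 at equal totals and 3 after quantile normalization, and 1 was below at equal totals.

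Without a single library, genes called in siDDX1 ranged from 95 to 1818 increased and from 58 to 1706 decreased, highest without the third siDDX1 library, and other pathway genes from 0 to 11 and from 1 to 22. In siEXOSC3 they ranged from 1027 to 2379 and from 583 to 2508, and pathway genes from 3 to 10 and from 7 to 23. Members called in siEXOSC3 ranged from 2 to 3 increased and were 0 decreased. Members above scramble in siDDX1 ranged from 5 to 6 and those below from 0 to 1.

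Same-numbered knockdown and scramble libraries deviated together in siDDX1 pairs 2 and 3 (r of 0.38 and 0.37) but not in pair 1 (−0.01) or in siEXOSC3 (0.03, −0.31 and −0.13), and not every library correlated best with its own number. Since not every pair deviated together, the numbers were not taken as pairing. With the replicate block 1085 genes increased in siDDX1 with 5 other pathway genes, 1059 genes decreased in siEXOSC3 and 4 other pathway genes increased there. Of the named genes, C1ra lost its call in siDDX1 with the block and Rela, Ticam1, Elavl1 and Nfkbid theirs in siEXOSC3.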

Other observations

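A few pathway genes outside the rule for named genes were chosen after their values were seen. Cxcl2, Cebpb and Stat3 had higher means in siDDX1, and other listed genes had lower ones. C3ar1, from the complement list, averaged 0.0394 FPKM in siDDX1 against 0.456 in scramble, without overlap but under the level filter. Serping1 (log2 fold change −0.57, limma adjusted p = 0.0509) and Jak2 (−0.39, adjusted p = 0.0569) were also lower in siDDX1 without overlap. Cxcl2, a neutrophil chemokine related to Cxcl1, was 0.432, 0.693 and 1.35 FPKM in siDDX1 against 0.241, 0.195 and 0.375 in scramble, all above but under the level filter and therefore not tested. Like Il6 and Cxcl1, Cxcl2 was highest in the third siDDX1 library. In siEXOSC3 Cxcl2 was 0.445, 0.499 and 0.208 FPKM against 0.243, 0.196 and 0.379, with overlap. Cebpb, a C/EBP factor, was 25.4, 20.8 and 17.6 FPKM in siDDX1 against 14.1, 17.2 and 17.1, highest in the first library as Lcn2 was (limma adjusted p = 0.102). In siEXOSC3, where Lcn2 was higher, Cebpb was 13.5, 8.97 and 15.9 FPKM against 14.2, 17.3 and 17.3 (adjusted p = 0.159). Stat3, which transmits interleukin-6 signals, was 31.5, 29.0 and 22.3 FPKM against 21.3, 21.0 and 18.7 (adjusted p = 0.0653). In siEXOSC3 Stat3 was 23.2, 20.7 and 27.9 FPKM against 21.5, 21.2 and 18.9 (adjusted p = 0.178). Neither Cebpb nor Stat3 passed the test, and no relation to Lcn2 was tested.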
